A study of Mus musculus with 4 samples.

Results

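Injury and regeneration-associated neuronal genes were followed in the ischemic hippocampus as a set of 10 genes given by symbol: Gal, Atf3, Sox11, Sprr1a, Gap43, Stmn4, Basp1, Tnfrsf12a, Gadd45a and Ecel1, out of 22609 genes counted. The set was put together with the counts of these same 4 libraries in view, so the difference between genotypes is given for the members as a description and carries no p-value. RNA-seq was performed on the hippocampus of ovariectomized female mice of 2 genotypes, with 2 libraries each. FLOX+GCI mice, the controls, carried the floxed Cyp19a1 genotype, and FBN-ARO-KO+GCI mice were forebrain neuron-specific aromatase knockouts in which Cre driven by the CaMKIIα promoter removes Cyp19a1 in forebrain excitatory neurons. All mice, controls included, were 3 to 5 months old, had their ovaries removed 1 week before surgery, and underwent global cerebral ischemia (GCI) by clipping both common carotid arteries for 20 min followed by 24 h of reperfusion. The comparison asks how the loss of estradiol made by forebrain neurons alters the hippocampal transcriptome after GCI. No hippocampus without ischemia was analysed here, so whether a member was induced by GCI was not measured.

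When an axon is cut or a neuron is stressed, the neuron can switch on a program of regeneration-associated genes. Transcription factors such as Atf3 and Sox11 act early in it, neuropeptides such as galanin (Gal) are released, and growth cone proteins such as Gap43, Basp1 and the stathmin Stmn4 act on the membrane and microtubules of the growing axon. The program is best known from peripheral sensory and motor neurons. Central neurons mount it less readily, and some of its genes, Atf3, Tnfrsf12a and Gadd45a among them, also respond to stress in glia and vascular cells.

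Between 24333396 and 33076795 counts fell on genes in each library, and 3 counts, taken here as the limit of detection, corresponded to 0.0907 to 0.123 on the counts-per-million scale (CPM, with library sizes scaled by TMM in the values that follow). The targeted gene, Cyp19a1, had 4 counts in FLOX+GCI replicate 1, 1 in FLOX+GCI replicate 2, and 2 in each FBN-ARO-KO+GCI library, which is too few to check the genotype labels. Hippocampal markers were present in all libraries: the 5 dentate granule cell genes summed to between 307 and 387 CPM, the 4 CA1 genes to between 502 and 525 CPM, and the 4 CA3 genes to between 201 and 233 CPM. The 7 neuronal markers measured summed to 7382 and 7042 CPM in FLOX+GCI and 7292 and 7972 CPM in FBN-ARO-KO+GCI. In whole tissue, fewer cells of a type and less RNA per cell cannot be told apart, and which cells held a member's transcripts was not measured. FLOX+GCI replicate 2 stood apart in several genes described below, so values that rest on it are given with and without it.

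Levels of the members spanned a wide range. On a scale per kilobase of exon and per library size (RPKM), averaged over the 4 libraries, Basp1 was highest at 184, followed by Gap43 at 108 and Stmn4 at 98.0. Sox11 followed at 7.14, Tnfrsf12a at 4.35, Gal at 2.20, Gadd45a at 2.19, Atf3 at 0.921 and Ecel1 at 0.679, and Sprr1a was last at 0.0439. Basp1, at 167 to 201 RPKM, lay above every other member in every library. The ranges of Gap43, 94.6 to 122 RPKM, and Stmn4, 93.8 to 103 RPKM, overlapped. Gal ran from 0.168 to 7.63 RPKM and Tnfrsf12a from 1.66 to 10.6 RPKM, so that their ranges took in those of Gadd45a or Sox11. Atf3, at 0.465 to 1.76 RPKM, overlapped Ecel1, at 0.328 to 1.15 RPKM.

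Gal, Atf3 and Tnfrsf12a shared their highest library, FLOX+GCI replicate 2, but not the order of the rest, as described next. Their promoters are given here so that sequence and values can be read together. The 250 bases before the start of transcription, in GRCm38.p6 from RefSeq and all on the minus strand, lay at chr19:3414545-3414794 for Gal, chr1:191183334-191183583 for Atf3 and chr17:23677450-23677699 for Tnfrsf12a. They were searched on both strands for the AP-1 site TGANTCA, the cAMP response element TGACGTCA, the shorter core of that element TGACG and the STAT site TTCNNNGAA, and a match is in capitals.
Gal: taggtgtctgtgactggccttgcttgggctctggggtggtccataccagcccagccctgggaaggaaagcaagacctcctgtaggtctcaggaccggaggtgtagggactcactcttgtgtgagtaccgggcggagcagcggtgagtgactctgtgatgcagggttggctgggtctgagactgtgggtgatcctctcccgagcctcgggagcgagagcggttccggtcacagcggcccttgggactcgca
Atf3: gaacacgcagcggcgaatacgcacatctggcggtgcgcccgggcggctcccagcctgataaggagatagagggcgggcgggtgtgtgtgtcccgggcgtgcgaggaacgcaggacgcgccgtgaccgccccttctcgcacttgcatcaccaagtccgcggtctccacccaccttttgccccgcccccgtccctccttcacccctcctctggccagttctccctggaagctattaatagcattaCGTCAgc
Tnfrsf12a: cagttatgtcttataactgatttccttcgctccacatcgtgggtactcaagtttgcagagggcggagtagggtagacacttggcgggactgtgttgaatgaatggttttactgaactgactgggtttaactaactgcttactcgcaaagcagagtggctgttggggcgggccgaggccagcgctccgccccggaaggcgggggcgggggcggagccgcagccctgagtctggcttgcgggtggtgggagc
The Atf3 promoter held 1 copy of the shorter core, CGTCA on the strand shown, beginning 7 bases before the start. Neither Gal nor Tnfrsf12a held any of the 4 motifs in this window. RefSeq promoters were found for 8 of the 10 members, not for Gap43 and Stmn4. Of the others, Sprr1a held the AP-1 letters TGAGTCA at 146 and at 116 bases before its start, Basp1 held TGACG at 238 bases, and Sox11, Gadd45a and Ecel1 held none. Among 32851 mouse promoters of this length, 6.75% held the AP-1 site, 1.55% the full response element, 17.8% its shorter core and 7.02% the STAT site. These matches are letters in a window and were not measured as bound sites.

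Galanin is a neuropeptide that inhibits transmitter release in the hippocampus through its receptors. The gene Gal lies on chromosome 19 from 3409919 to 3414472 (mm9, minus strand). It had 3 counts in FLOX+GCI replicate 1 and 134 in FLOX+GCI replicate 2, against 13 and 9 in the FBN-ARO-KO+GCI libraries, or 0.120, 5.44, 0.392 and 0.307 CPM. A single library held most of its reads, and both knockout libraries lay above the other control library. The 3 counts of FLOX+GCI replicate 1 are at the limit of detection taken here, so ratios and fold changes that rest on them are poorly set. Within FLOX+GCI, replicate 2 was 45.4 times replicate 1, with a 95% exact interval of 15.2 to 223 that covers counting error only. The log2 fold change of FBN-ARO-KO+GCI over FLOX+GCI was -2.96 ± 1.24 (SE, n = 2 each), and it was 1.52 without FLOX+GCI replicate 2, so its direction turned on that library. Against FLOX+GCI replicate 1 alone, the 2 knockout libraries together were 2.94 times as high, with an exact counting interval of 0.884 to 15.4.

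Tnfrsf12a encodes Fn14, the receptor for the cytokine TWEAK, and lies on chromosome 17 from 23812414 to 23814416 (mm9, minus strand). It had 40 and 251 counts in the controls and 77 and 78 in the knockouts, which is 1.60, 10.2, 2.32 and 2.66 CPM. FLOX+GCI replicate 2 was again far above the rest, and FLOX+GCI replicate 1 was the lowest of all. The log2 fold change was -1.24 ± 0.69 with all libraries and 0.64 without FLOX+GCI replicate 2. Of its 963 exon bases, 78 are shared with Hcfc1r1 on the other strand, which had 1961 and 2165 counts in the controls and 2581 and 2080 in the knockouts. Whether counting used strand is not given in the sources used here, so reads in the shared stretch cannot be assigned. Scaled by library, Hcfc1r1 was at 78.3 and 87.8 CPM in the controls and 77.9 and 71.0 CPM in the knockouts. FLOX+GCI replicate 2 was 1.12 times replicate 1 for Hcfc1r1 and 6.38 times for Tnfrsf12a. The part of Hcfc1r1 in the Tnfrsf12a counts was not tested.

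Atf3, a stress-induced transcription factor of the ATF/CREB family and a standard marker of axotomized neurons, lies on chromosome 1 from 192994175 to 193007219 (mm9, minus strand). Its counts were 34 and 86 in the controls and 51 and 27 in the knockouts, or 1.36, 3.49, 1.54 and 0.922 CPM. The library order resembled that of Tnfrsf12a at the top, with FLOX+GCI replicate 2 at 2.57 times replicate 1 (95% exact counting interval 1.71 to 3.95), but FLOX+GCI replicate 1 lay between the 2 knockout libraries. The log2 fold change was -0.97 ± 0.48, and -0.13 without FLOX+GCI replicate 2.

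**Figure D1:**
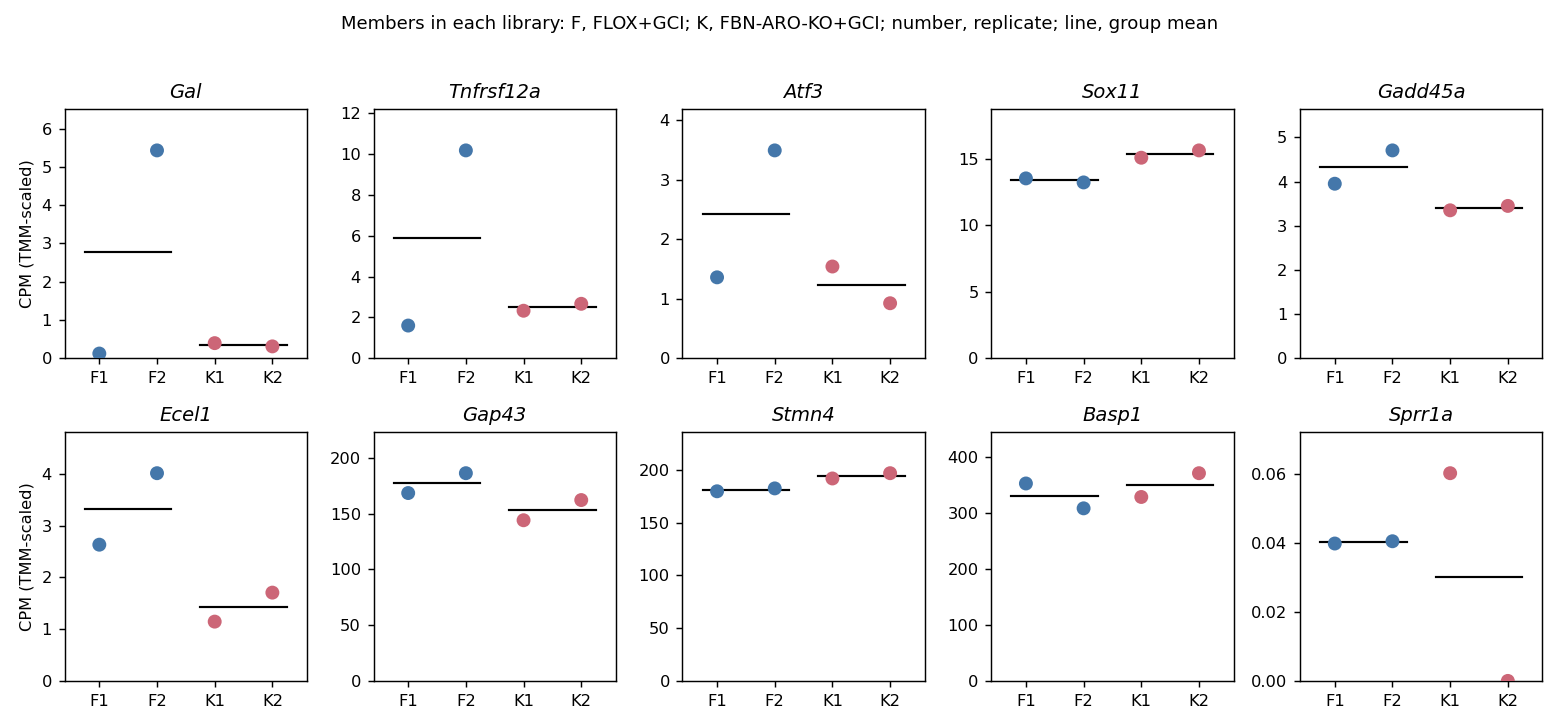
TMM-scaled CPM (vertical axis, from 0, a scale for each gene) of the 10 members in the 4 libraries (horizontal axis: F1 and F2, FLOX+GCI replicates; K1 and K2, FBN-ARO-KO+GCI replicates), with points for libraries and lines for group means. For Gal, Tnfrsf12a and Atf3 one point, FLOX+GCI replicate 2 at 5.44, 10.2 and 3.49 CPM, lies above all others, while Gap43, Stmn4, Basp1 and Sox11 differ little between libraries.

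These 3 members were over 2-fold higher in FLOX+GCI replicate 2 than in each other library. Of the 14527 genes tested, 64 had that pattern, which is 0.441%. Another library stood over 2-fold above each of the rest in fewer genes, 49 for FLOX+GCI replicate 1, 2 for FBN-ARO-KO+GCI replicate 1 and 5 for FBN-ARO-KO+GCI replicate 2, with no member among them. Many genes of reactive astrocytes were high in the same library. Of 17 such genes, FLOX+GCI replicate 2 was highest in 14 and over 2-fold above all other libraries in 8. The 64 genes above were counted only among those past the count filter, which 14 of the 17 passed. Of the 8, Ptx3, Cd44, Cxcl10, Aspg and Osmr passed the filter, and the others did not. In how many of all genes FLOX+GCI replicate 2 was highest was not counted. The summed level of the 17 was 723 and 1519 CPM in FLOX+GCI and 872 and 880 CPM in FBN-ARO-KO+GCI, and none was at 0 in all libraries. Most of that sum was Gfap, the astrocyte intermediate filament, at 396 and 900 CPM against 502 and 560 CPM (9918 and 22192 counts against 16654 and 16409). Timp1, a metalloproteinase inhibitor, had 5 and 203 counts in FLOX+GCI against 5 and 4. Not all of the 17 followed FLOX+GCI replicate 2. Lcn2 was higher in both knockouts, at 2.35 and 4.95 CPM against 8.18 and 5.63 CPM. Hspb1 was highest in FLOX+GCI replicate 1, at 2.55 and 2.15 CPM against 2.44 and 1.71 CPM. The part of these genes in the levels of Gal, Tnfrsf12a and Atf3 was not tested. The 8 markers of hypothalamus, where Gal is abundant, summed to 235 and 218 CPM in the controls and 186 and 158 CPM in the knockouts, most of it Sst, which hippocampal interneurons also express (233 and 212 CPM against 185 and 157 CPM). The other 7 summed to 2.75 and 6.09 CPM in the controls and 0.875 and 1.02 CPM in the knockouts, highest in FLOX+GCI replicate 2. Among them Trh, which encodes thyrotropin-releasing hormone, had 3 and 118 counts in the controls and 2 and 10 in the knockouts, and Pmch, the melanin-concentrating hormone gene, had 4 and 11 against 8 and 8. Pomc, the proopiomelanocortin gene, was highest in the other control, with 54 and 16 counts against 15 and 7, and Hcrt, Avp, Oxt and Agrp were at 0 to 4 counts in every library. The part of these genes in the level of Gal was not tested.

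Ecel1 and Gadd45a were lower in both FBN-ARO-KO+GCI libraries than in both FLOX+GCI libraries. Ecel1, a membrane metallopeptidase of neurons also known as DINE that is induced by nerve injury, lies on chromosome 1 from 89044230 to 89053096 (mm9, minus strand). Counts were 66 and 99 in the controls against 38 and 50 in the knockouts, or 2.63, 4.02, 1.15 and 1.71 CPM. Its groups did not overlap, and the log2 fold change was -1.22 ± 0.32. Leaving out each library in turn gave -1.53 to -0.89, so Ecel1 was the member with a difference over 2-fold whose direction did not rest on FLOX+GCI replicate 2.

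Gadd45a, a growth arrest and DNA damage response gene, lies on chromosome 6 from 66985090 to 66987451 (mm9, minus strand). Control libraries held 99 and 116 counts and knockout libraries 111 and 101, which is 3.95, 4.71, 3.35 and 3.45 CPM once the larger size of the knockout libraries is taken into account. The groups did not overlap, the log2 fold change was -0.35 ± 0.20, and it was -0.22 without FLOX+GCI replicate 2. The lincRNA E230016M11Rik shares 337 of its 1764 exon bases on the other strand and had between 7 and 20 counts in a library.

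The growth cone genes were abundant and differed little. Gap43, a membrane protein of growing and plastic axon terminals, lies on chromosome 16 from 42248555 to 42340764 (mm9, minus strand). It was measured at 168 and 186 CPM in FLOX+GCI and 144 and 162 CPM in FBN-ARO-KO+GCI, from 4220 to 4774 counts. Both knockout libraries lay below both controls, by a log2 fold change of -0.21 ± 0.09, which was -0.13 without FBN-ARO-KO+GCI replicate 1. Stmn4, which sequesters tubulin, lies on chromosome 14 from 66963133 to 66980517 (mm9, plus strand) and went slightly the other way, at 180 and 182 CPM in FLOX+GCI and 192 and 197 CPM in FBN-ARO-KO+GCI (log2 fold change 0.10 ± 0.07). Basp1, which like Gap43 is a membrane-bound substrate of protein kinase C, lies on chromosome 15 from 25293040 to 25343519 (mm9, minus strand). It was at 353 and 308 CPM in FLOX+GCI and 329 and 371 CPM in FBN-ARO-KO+GCI. Its groups overlapped, and its log2 fold change of 0.08 ± 0.09 was -0.02 without FLOX+GCI replicate 2.

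Sox11, a SoxC transcription factor of immature and regenerating neurons, lies on chromosome 12 from 28025562 to 28027574 (mm9, minus strand). Control libraries held 339 and 326 counts and knockout libraries 500 and 458, or 13.5, 13.2, 15.1 and 15.6 CPM. Both knockout libraries lay above both controls, with a log2 fold change of 0.20 ± 0.12. Across 13869 genes the fold change declined with GC content (Spearman's rho -0.55, across genes, which are not independent). Sox11, in the GENCODE model used here with 2013 nt of exon, holds 62.8% G and C. The annotation used for counting is not given and may differ from that model. After removal of the trend that each library showed over GC content and exon length, the log2 fold change of Sox11 was 0.48, that of Stmn4 0.21 and that of Basp1 0.24. The members with lower values in the knockouts had -2.81 (Gal), -1.01 (Tnfrsf12a), -1.01 (Ecel1), -0.92 (Atf3), -0.32 (Gadd45a) and -0.19 (Gap43), each smaller in size than without the correction.

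Sprr1a, a cornified envelope protein gene that is strongly induced in axotomized sensory neurons, lies on chromosome 3 from 92287877 to 92289816 (mm9, minus strand). It had 1 count in each FLOX+GCI library and 2 and 0 in FBN-ARO-KO+GCI. All libraries were below the limit of 3 counts, so Sprr1a was not detectable at this depth and no fold is given.

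**Figure D2:**
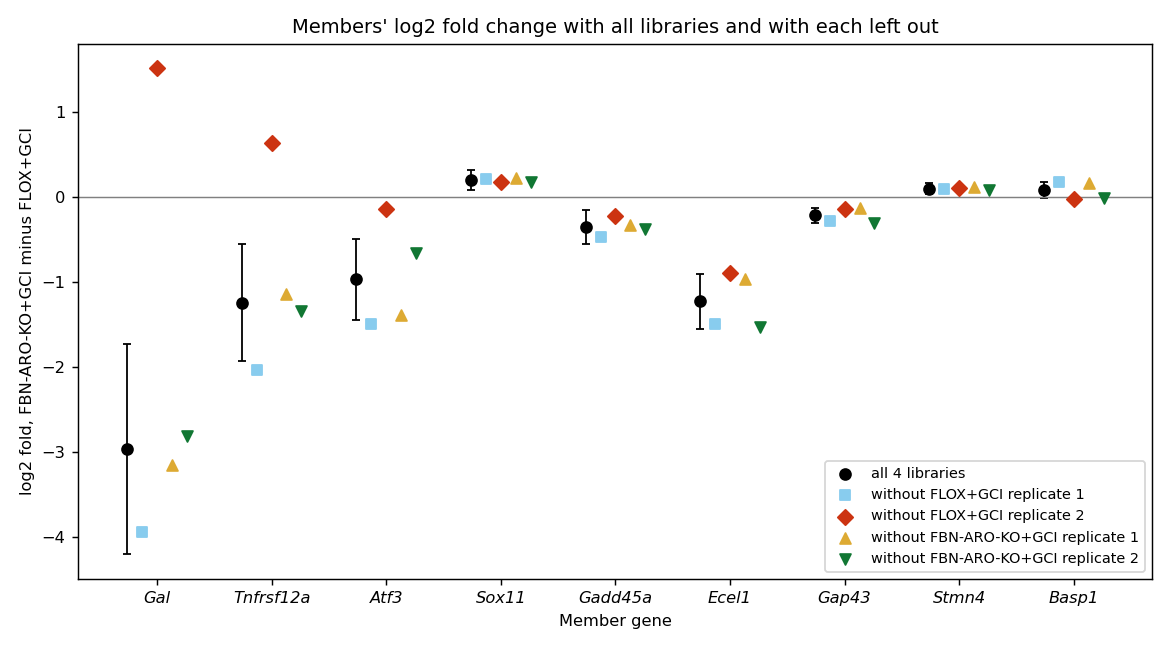
Log2 fold change of FBN-ARO-KO+GCI over FLOX+GCI (vertical axis) for the 9 members past the count filter (horizontal axis), with all 4 libraries (black, bars are the SE of the fit) and with each library left out in turn. Without FLOX+GCI replicate 2 (red diamonds) Gal moves from -2.96 to 1.52 and Tnfrsf12a from -1.24 to 0.64, while Ecel1 stays between -1.53 and -0.89.

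Of the 10 members, 9 passed the count filter, with 3 higher and 6 lower in the knockouts and a median log2 fold change of -0.35, against -0.01 over all genes tested. Without FLOX+GCI replicate 2 the members' median was -0.02. Both knockout libraries lay below both controls in 3 members (Ecel1, Gadd45a and Gap43) and above them in 2 (Sox11 and Stmn4). Over all genes tested, 25.8% lay below and 25.9% above in this way. Since the members were picked on this contrast, nothing is read from these counts.

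Genes that act with the members but were not members were compared with edgeR's quasi-likelihood test, adjusted over all 14527 genes tested. With 2 libraries in each group, 2 genes passed an adjusted p of 0.05, which is 0.0138% of those tested, while 16.5% had an unadjusted p under 0.05. For 1 gene on its own, 2 libraries against 2 allow no two-sided exact permutation p under 0.333. Of 24 direct partners and family relatives, 21 passed the filter, 7 with higher and 14 with lower values in FBN-ARO-KO+GCI, and none passed the adjusted test, the smallest adjusted p being 0.238. Their median log2 fold change was -0.09. At an unadjusted p under 0.05 there were 4, all lower. DESeq2 gave an adjusted p to 8 of the 21, not to Gadd45b or Gadd45g, and called 0 of those 8, against 292 of 5728 over all genes. With the replicate number as a block, a fit in which 1.27% of all genes were called, Gadd45g was the 1 call.

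The galanin receptors gave little signal. Galr1, the inhibitory receptor of forebrain neurons, had 11 counts in both FLOX+GCI libraries and 11 and 15 in FBN-ARO-KO+GCI, with an edgeR log2 fold change of -0.08 and an adjusted p of 0.946. Galr2 had 1 count in one knockout library and 0 elsewhere, and Galr3 had 1 and 2 counts in the controls and 1 and 0 in the knockouts, so neither was detectable. Tnfsf12, which encodes TWEAK, the ligand of the Tnfrsf12a product, was at 7.26 and 4.22 CPM in FLOX+GCI and 4.86 and 4.44 CPM in FBN-ARO-KO+GCI, where the excess was in FLOX+GCI replicate 1, the library in which its receptor was lowest. Its groups overlapped (log2 fold change -0.30, edgeR adjusted p 0.572), and the fold change was 0.14 without FLOX+GCI replicate 1, -0.65 without FLOX+GCI replicate 2 and -0.09 with the GC and length correction.

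Jun, the AP-1 partner of Atf3 in injured neurons, was at 110 and 108 CPM in FLOX+GCI and 94.2 and 90.6 CPM in FBN-ARO-KO+GCI. Both knockout libraries were lower and FLOX+GCI replicate 2 did not stand apart, with a log2 fold change of -0.24 ± 0.07 that missed the threshold (edgeR adjusted p 0.245) and was -0.14 with the GC and length correction. Sox4, the SoxC relative of Sox11, was at 8.74 and 7.91 CPM against 8.63 and 7.0 CPM, with overlapping groups and an edgeR adjusted p of 0.805.

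Among the relatives of Gadd45a, both other family members had lower values in the knockout libraries. Gadd45b, an activity-induced gene linked to DNA demethylation, was at 14.6 and 18.0 CPM in FLOX+GCI and 11.6 and 10.6 CPM in FBN-ARO-KO+GCI. Gadd45g was at 12.2 and 19.1 CPM in FLOX+GCI and 9.20 and 7.44 CPM in FBN-ARO-KO+GCI. The groups did not overlap in either gene. Log2 fold changes were -0.55 ± 0.15 for Gadd45b and -0.91 ± 0.23 for Gadd45g, both with an edgeR adjusted p of 0.238, and for Gadd45g the adjusted p was 0.037 with the replicate block and 0.379 with the block and the GC correction together. The fold change of Gadd45g without FLOX+GCI replicate 2 was, on the log2 scale, -0.55.

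The stathmins other than Stmn4 were near equal between groups or lower. Stmn2, a marker of growing axons, was at 450 and 462 CPM in FLOX+GCI and 442 and 475 CPM in FBN-ARO-KO+GCI, and Stmn1 was between 15.3 and 16.4 CPM in all libraries. Stmn3 was at 463 and 465 CPM against 387 and 400 CPM, a log2 fold change of -0.24 ± 0.07 that missed the threshold (edgeR adjusted p 0.238) and was -0.04 with the GC and length correction. The relatives of Gap43 and Basp1 among protein kinase C substrates differed from each other in their spread. Marcks was at 109 and 69.3 CPM in FLOX+GCI against 102 and 133 CPM (log2 fold change 0.40, edgeR adjusted p 0.370), with FLOX+GCI replicate 2 the lowest and a log2 fold change of 0.10 without it and 0.26 with the GC and length correction, and Marcksl1 was between 56.3 and 61.9 CPM in all libraries. Mme, the neprilysin relative of Ecel1, was at 4.79 and 4.99 CPM in FLOX+GCI and 6.15 and 6.42 CPM in FBN-ARO-KO+GCI, the opposite order from Ecel1 (log2 fold change 0.36 ± 0.17, edgeR adjusted p 0.326, and a fold change of 0.13 with the GC and length correction).

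Of 15 transcription factors tied to regeneration, all passed the filter, 4 with higher and 11 with lower values in FBN-ARO-KO+GCI. Jun, Sox4 and Atf4 of this list are also on the list of partners and relatives, so the counts overlap. The median log2 fold change of the 15 was -0.14. All genes tested had a median of -0.01, with 7069 higher and 7458 lower. At an unadjusted edgeR p under 0.05 there were 1 higher and 4 lower, against 1267 higher and 1136 lower of the 14527 genes tested. None passed the adjusted test in edgeR, with or without the block. DESeq2 gave an adjusted p to 6 of the 15, not to Cebpb or Cebpd, and called none of those 6. The C/EBP factors, which act in inflammatory and injury responses, had the lowest values. Cebpd was at 7.94 and 9.45 CPM in FLOX+GCI and 5.28 and 4.92 CPM in FBN-ARO-KO+GCI, and Cebpb was at 4.19 and 4.10 CPM against 2.72 and 2.73 CPM. Neither gene had overlapping groups, and in neither did FLOX+GCI replicate 2 stand apart as it did for Atf3. Log2 fold changes were -0.77 ± 0.17 for Cebpd (edgeR adjusted p 0.238) and -0.60 ± 0.20 for Cebpb (edgeR adjusted p 0.248), the latter -0.22 with the GC and length correction. At the other end, Creb1, the cAMP-responsive factor, had a log2 fold change of 0.37 (edgeR adjusted p 0.245) and the hypoxia factor Hif1a one of 0.25 (edgeR adjusted p 0.331), which were 0.09 and 0.03 with the GC and length correction, and 0.23 and 0.07 without FBN-ARO-KO+GCI replicate 2.

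Of 32 effectors, 29 passed the filter, 14 with higher and 15 with lower values in FBN-ARO-KO+GCI, with a median log2 fold change of -0.03. Stmn2 of this list is also on the list of partners and relatives. At an unadjusted edgeR p under 0.05 there were 2 higher and 7 lower, against 1267 higher and 1136 lower of the 14527 genes tested. None passed the adjusted edgeR test, the smallest adjusted p being 0.245. With the replicate block, which called 1.27% of all genes, Lif, Socs3 and Anxa2 were called, all lower, and with the block and the GC correction together none was. DESeq2 gave an adjusted p to 15 of the 29, not to Lif, Socs3 or Anxa2. It called 2, Npy, the neuropeptide Y gene, with lower and Cacna2d1 with higher values, against 292 of 5728 over all genes.

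Lif, an injury-induced cytokine of the interleukin-6 family, had 40 and 521 counts in the controls and 35 and 39 in the knockouts. Socs3, a feedback inhibitor of that signaling that limits axon regrowth, had 57 and 330 against 49 and 45. Both genes had the library order of Gal and Tnfrsf12a at the top, with FLOX+GCI replicate 2 far above the rest, but unlike those members they were lowest in the knockout libraries. The log2 fold change of Lif was -3.25 ± 1.00 (edgeR adjusted p 0.245, and 0.012 with the block) and that of Socs3 was -2.37 ± 0.71 (edgeR adjusted p 0.245, and 0.019 with the block). Without FLOX+GCI replicate 2 they were -0.43 and -0.60. Anxa2 is a membrane-binding annexin of vessels and glia as well as injured neurons. It had 503 and 517 counts in the controls and 511 and 249 in the larger knockout libraries. Scaled by library, FLOX+GCI replicate 2 was 1.04 times FLOX+GCI replicate 1. On that scale FBN-ARO-KO+GCI replicates 1 and 2 were 0.768 and 0.423 times FLOX+GCI replicate 1. Both knockout libraries thus lay below both controls, and FBN-ARO-KO+GCI replicate 2 was the lowest. The log2 fold change of Anxa2 was -0.77 (edgeR adjusted p 0.248, and 0.035 with the block). It was -0.41 without FBN-ARO-KO+GCI replicate 2 and -1.27 without FBN-ARO-KO+GCI replicate 1. Vessel markers were also lowest in FBN-ARO-KO+GCI replicate 2. The 6 endothelial genes summed to 206 and 139 CPM in the controls and 157 and 111 CPM in the knockouts. The 7 mural and fibroblast genes summed to 304 and 188 against 215 and 144 CPM. The part of these genes in the level of Anxa2 was not tested. Cacna2d1, the calcium channel subunit bound by gabapentin, was at 219 and 194 CPM in FLOX+GCI against 233 and 322 CPM (log2 fold change 0.43, edgeR adjusted p 0.250). The adhesion molecule Chl1 was at 259 and 236 CPM against 278 and 319 CPM (log2 fold change 0.27, edgeR adjusted p 0.248). With the GC and length correction these were 0.17 and 0.01, and without FBN-ARO-KO+GCI replicate 2 they were 0.18 and 0.17.

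**Figure D3:**
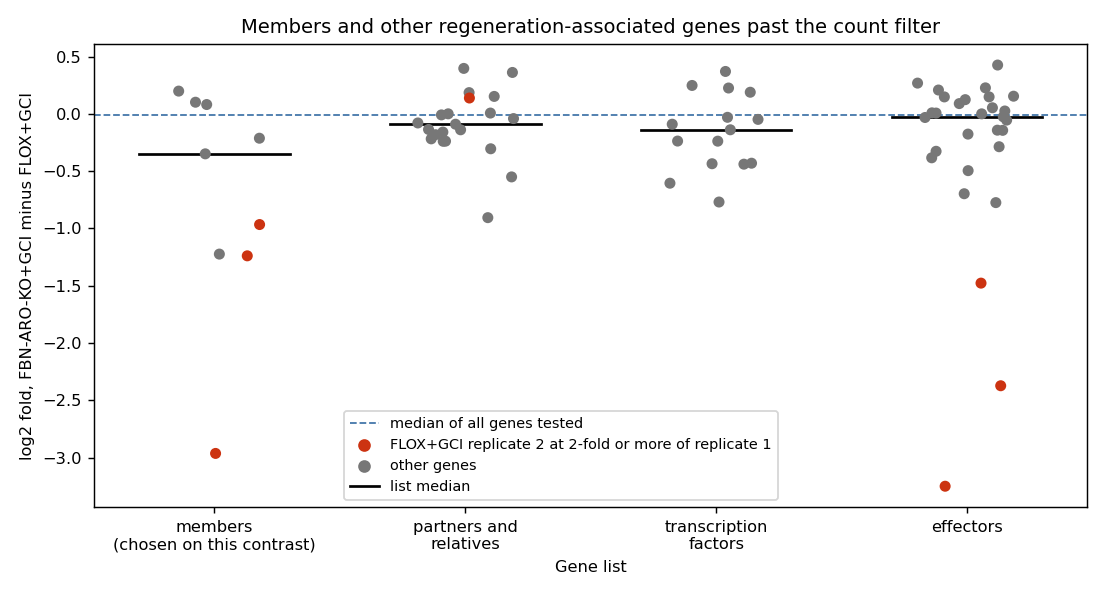
Log2 fold change of FBN-ARO-KO+GCI over FLOX+GCI (vertical axis) for each gene past the count filter in 4 lists (horizontal axis), with black lines for list medians and a dashed line for the median of all genes tested. Genes with FLOX+GCI replicate 2 at 2-fold or more of replicate 1 (red) hold the lowest values in the members (Gal at -2.96) and in the effectors (Lif at -3.25), and the list medians of -0.09, -0.14 and -0.03 for the non-members lie near that of all genes.

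Genes whose levels across the 4 libraries lay closest to those of a member were sought for Atf3 and Gap43, by the Euclidean distance between log2 CPM centred on each gene's mean. For Atf3 they were Plb1 (a phospholipase), Slc15a3 (a peptide and histidine transporter), Aspg (an asparaginase), Bdkrb2 (the bradykinin B2 receptor) and Hspb6 (a small heat shock protein), at distances of 0.0903 to 0.264, against 0.749 for the 1st percentile over all genes. Each of them was highest in FLOX+GCI replicate 2 and lowest in FBN-ARO-KO+GCI replicate 2. Atf3 had the same highest and lowest libraries, so this follows from how the genes were chosen. Aspg is also on the reactive astrocyte list. Slc15a3 had 25 and 65 counts in the controls and 33 and 21 in the knockouts. For Gap43 they were 1810058I24Rik, Acat2, 1810043H04Rik, Gusb and Gga2, at distances of 0.0186 to 0.0373, against 0.106 for the 1st percentile over all genes. Their log2 fold changes lay between -0.25 and -0.19, near that of Gap43, which also follows from the choice. These likenesses rest on 4 libraries and are descriptions only.

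**Figure D4:**
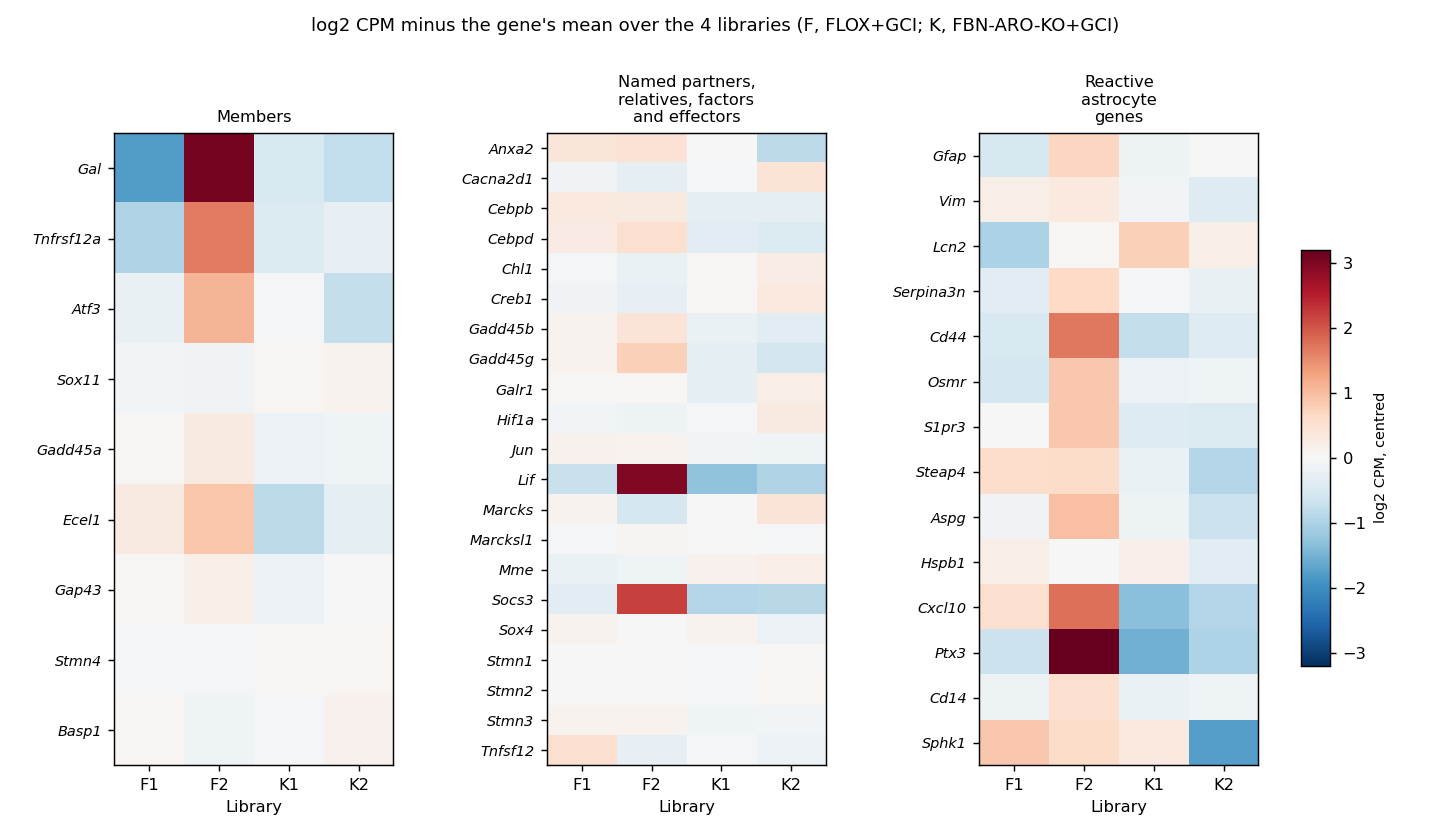
Log2 CPM minus each gene's mean over the 4 libraries (color, from blue for below to red for above) for members, named non-members and reactive astrocyte genes past the count filter (rows), by library (columns: F1 and F2, FLOX+GCI; K1 and K2, FBN-ARO-KO+GCI). The F2 column is reddest for Gal, Tnfrsf12a, Atf3, Lif, Socs3, Cd44, Cxcl10 and Ptx3, while Gap43, Stmn4, Basp1, Sox11 and the other stathmins are pale in all 4 columns.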

How the data were processed

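Total RNA libraries (Illumina TruSeq, single-end reads of 50 nt) were made from hippocampi, 2 per genotype. Per the labels and the submitters' processing notes, the authors used bcl2fastq, TopHat2 2.0.8b and HTSeq with mm9, and deposited whole-number read counts per gene symbol, 1 file per library. Strand setting and annotation are not given in the sources used here, nor whether a library is 1 mouse, so p-values may measure technical spread. HTSeq's summary rows stayed out of library sizes (35.1 to 36.5% of all rows summed for non-unique alignments, 7.96 to 8.70% for no feature).

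Counts were scaled by TMM and tested with edgeR 4.0.16 (quasi-likelihood, filterByExpr with a minimum of 10, Benjamini-Hochberg over 14527 genes, R 4.3.3), genotype only. The SE is the log2 fold change over the root of F. Centred log2 CPM used a prior count of 2. Alternatives were DESeq2 1.42.0, other size factors and filters, a replicate block, a GC and length offset, and each library left out. Fits were tested on simulated data drawn with trended dispersions, chosen after a first simulation with gene-wise dispersions gave more false calls than the threshold allows. The fits themselves were not altered. Members and gene lists were chosen with earlier results of these data known. Named genes were the members, fixed relatives, genes called in edgeR with or without the block, the 2 most extreme per list and direction, and the 5 nearest to Atf3 and Gap43. Hypothalamic markers, Timp1, Gfap, Lcn2, Hspb1, Npy and Cdkn1a were named after their values were seen. Exon lengths and positions come from GENCODE on mm9.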

Additional observations from a re-analysis of the deposited data

How the results depend on the processing

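With 2 libraries per group, edgeR called 2 genes over the whole table, with 2 also under other size factors, library totals, a mean of at least 50 counts, the GC and length correction, or that correction with the replicate block. It called 5 with every gene of at least 1 count kept and 184 with the replicate block (42 higher, 142 lower), and DESeq2 called 292 of the 5728 genes it gave an adjusted p (215 higher, 77 lower). Leaving out a library gave 0 to 193 calls, 193 without FLOX+GCI replicate 1 and 127 without FLOX+GCI replicate 2, each lone library being assumed to vary like the others. The labels do not say whether same-numbered libraries were processed together. Deviations of same-numbered libraries correlated at 0.129 across genes, which with 2 pairs cannot show whether they share a batch. Replicates differed by more than sampling noise (chi-square per degree of freedom 10.5 and 12.3).

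The members' median log2 fold change was -0.47 to -0.016 with a library left out, the latter without FLOX+GCI replicate 2. Gal ranged from -3.93 to 1.52, Tnfrsf12a from -2.03 to 0.64 and Basp1 from -0.016 to 0.18, and no other member changed sign. In the other settings no member changed sign. At a mean of at least 50 counts Gal and Atf3 have no value and the median of the rest was -0.22, and Sprr1a has none in most settings.

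Partners and relatives had 1 call with the block and 0 to 2 with a library left out (Gadd45g and Marcks without FLOX+GCI replicate 1, Cdkn1a without FLOX+GCI replicate 2). Effectors had 2 calls with DESeq2, 3 with the block and 0 to 2 with a library left out (Lif and Socs3 without FLOX+GCI replicate 1). Transcription factors had 0 in every edgeR setting, and 0 among the 6 of 15 to which DESeq2 gave an adjusted p (8 of 21 partners and relatives, 15 of 29 effectors). The causes were not tested. Signs of uncalled genes near 0 turned as follows. With the GC and length correction, alone and with the block, Marcksl1 was 0.16 and 0.16, Stmn1 0.056 and 0.055, and Stmn2 -0.060 and -0.060. With library totals Stmn2 was -0.029. With a library left out Galr1 ranged from -0.41 to 0.21, Marcksl1 from -0.11 to 0.026, Sox4 from -0.25 to 0.053, Stmn1 from -0.056 to 0.036, Stmn2 from -0.044 to 0.055 and Tnfsf12 from -0.65 to 0.14.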

Other observations

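Among the 64 genes that were over 2-fold higher in FLOX+GCI replicate 2 than in each other library, ranked by the ratio to the next highest library, Gal was rank 2, Tnfrsf12a rank 14 and Atf3 rank 43. Rank 1 was Ptx3, a secreted pentraxin of reactive astrocytes, with 11 and 189 counts in the FLOX+GCI libraries against 7 and 10 in the knockouts. Lif was rank 3. Plaur, the urokinase receptor, was rank 16 with 11 and 38 counts against 12 and 10. Cd44, the hyaluronan receptor, was rank 11 with 118 and 529 against 130 and 145, and Has2, a hyaluronan synthase, was rank 20 with 9 and 31 against 10 and 13. Tubb6, a tubulin, was rank 9 with 25 and 149 against 38 and 22. Slc17a6, a vesicular glutamate transporter gene, was rank 31 with 631 and 1584 against 738 and 740. These genes are only a part of the 64 and were named after their values were seen, and the difference rests on 1 library.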
